A study of Mus musculus with 20 samples.

Results

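The genes described here are the 3 ten-eleven translocation enzymes Tet1, Tet2 and Tet3 and 7 further genes linked to the removal of methyl groups from DNA, Tdg, Smug1, Mbd4, Gadd45a, Gadd45b, Gadd45g and Idh1. They were listed by symbol, a rule that uses no measured value, with earlier results of these data known. All 10 were among the 34620 gene symbols of the count tables, and all 10 were among the 19192 that passed the filter on low counts.

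RNA was measured by polyA sequencing of microdissected brain tissue from male wild type C57BL/6 mice, a strain, sex and genotype that all groups share. The groups were 1 library of striatal precursors (SP), 1 of hippocampal precursors (HP), 1 of young medial spiny neurons (yMSN, spelled as in the labels; medium spiny neurons are the inhibitory projection neurons of the striatum), 1 of young hippocampal CA pyramidal neurons (yCA) and 2 of dorsal medial spiny neurons (dMSN). The labels give no ages, do not say whether animals were pooled, and do not say whether the dMSN libraries came from separate animals, so the p-values measure the spread between these libraries only. The other 14 samples of the series are bisulfite libraries and were not analysed here.

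In the textbook scheme, Tet enzymes oxidise 5-methylcytosine to 5-hydroxymethylcytosine and then to formylcytosine and carboxylcytosine, using iron, oxygen and 2-oxoglutarate. Thymine DNA glycosylase, the product of Tdg, cuts out the formyl and carboxyl forms, and base excision repair refills the gap with unmodified cytosine. 5-hydroxymethylcytosine is known to be abundant in neurons, and Gadd45b is known in mice as a gene that neuronal activity induces and that acts in activity-dependent demethylation of DNA.

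The library totals over genes were 152347673 and 145713678 counts in dMSN 1 and dMSN 2, against 31282185 to 36969136 in the precursor and young groups. Levels are CPM, the count of a gene set to a common library size, after scaling by trimmed means of M values (TMM). A count of 0 allowed up to 0.0249 CPM in dMSN 1 and 0.0861 CPM in HP, counting error only. The labels were checked against marker lists, given here as summed CPM. The 6 cycling progenitor markers stood at 2450 in SP and 2400 in HP, 667 in yMSN and 570 in yCA, and 8.02 and 9.07 in dMSN. The 9 medium spiny neuron markers stood at 6360 in both dMSN libraries and at 186 in yMSN, against 245 in yCA, so these markers did not set yMSN apart from yCA as its label would have it. The 6 pyramidal neuron markers stood at 30.1 in SP, 54.7 in HP, 561 in yMSN, 1100 in yCA, and 1170 and 1880 in dMSN, so they were not lower in dMSN than in yCA. The 6 erythroid markers stood at 2110 in SP, 2030 in HP, 39.6 in yMSN, 26.3 in yCA, and 0.183 and 0.199 in dMSN. Of these 6, the globin genes Hbb-bh1, Hbb-y and Hba-x stood at 423, 1032 and 574 CPM in SP. In yMSN they stood at 0.484, 3.45 and 1.98 CPM. Alas2, of the same list, stood at 22.88 in SP, 21.65 in HP, 28.96 in yMSN and 18.79 in yCA, so it did not fall with the sum there. The dMSN libraries also held the 7 oligodendrocyte markers at 8790 and 7530, against 67.2 to 142 elsewhere, and the young libraries held 8 skeletal muscle markers at 1990 in yMSN and 4820 in yCA, against 14.2 and 16.7 in SP and HP. None of the medium spiny neuron, oligodendrocyte or cycling markers was at a count of 0 in any library. In such bulk tissue, fewer cells of a type and less RNA per cell cannot be told apart.

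The promoters of the 3 Gadd45 genes are shown because these were the genes whose levels were highest in dMSN, while the other 7 were lowest there. The windows run from 250 bases before to 50 bases after the annotated start and are taken from RefSeq (GRCm38.p6), where all 10 genes had an entry and Idh1 had 2. Capitals mark the E-box CACGTG, the CCAAT box (CCAAT, or ATTGG on the other strand) and the TATA box (TATAAA, or TTTATA on the other strand), and none of the marked motifs overlap. These motifs were chosen after the sequences had been read.
Gadd45a, chr6:67037358-67037657, minus strand: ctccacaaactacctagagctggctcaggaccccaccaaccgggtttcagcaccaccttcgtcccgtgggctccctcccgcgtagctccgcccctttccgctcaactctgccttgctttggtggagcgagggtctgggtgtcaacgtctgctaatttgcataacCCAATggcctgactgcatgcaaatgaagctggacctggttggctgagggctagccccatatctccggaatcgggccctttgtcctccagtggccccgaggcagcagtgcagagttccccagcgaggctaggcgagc
Gadd45b, chr10:80929841-80930140, plus strand: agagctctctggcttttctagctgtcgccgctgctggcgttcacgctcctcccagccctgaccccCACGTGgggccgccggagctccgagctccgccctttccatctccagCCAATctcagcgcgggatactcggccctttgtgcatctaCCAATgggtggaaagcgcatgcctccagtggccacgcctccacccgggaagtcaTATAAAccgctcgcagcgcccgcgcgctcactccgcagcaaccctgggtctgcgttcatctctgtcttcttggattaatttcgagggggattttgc
Gadd45g, chr13:51846425-51846724, plus strand: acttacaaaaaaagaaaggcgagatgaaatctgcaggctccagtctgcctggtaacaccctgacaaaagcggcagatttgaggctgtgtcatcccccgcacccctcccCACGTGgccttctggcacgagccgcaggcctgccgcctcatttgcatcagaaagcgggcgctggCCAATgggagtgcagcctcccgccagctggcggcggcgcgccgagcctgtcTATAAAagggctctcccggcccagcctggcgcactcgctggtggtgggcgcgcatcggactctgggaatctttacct
Reading each motif by its first letter, Gadd45b held the E-box at -185, CCAAT boxes at -139 and -100 and the TATA box at -46 from its start. Gadd45g held them in the same order, with the E-box at -142, the CCAAT box at -78 and the TATA box at -27. Gadd45a held only a CCAAT box, at -86. Of all 32851 promoter windows, 7.15% held the E-box, 37.4% the CCAAT box and 13.6% the TATA box. Of the 10 genes, only Gadd45b and Gadd45g held the TATA letters, and Tdg was the only other to hold the E-box. The cyclic AMP response element TGACGTCA and its core TGACG, which the full element contains, were also searched for on both strands. The full element was present in Tdg alone, at -135, and in 1.79% of all windows, and the core was present in Tet2, Tdg, Smug1 and Mbd4 and in 20.8% of all windows. These are matches of letters and not tested sites. The windows held 14 CpG dinucleotides in Gadd45a, 24 in Gadd45b and 21 in Gadd45g. The Tet2 window held 57, and 99.8% of windows held fewer, while Tet1 held 17 and Tet3 held 22, against a median of 7 over all windows.

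Tet mRNA was lower in dMSN than in precursor and young tissue, and least so for Tet2. Tet1 stood at 54.8 CPM in SP, 51.9 in HP, 48.1 in yMSN, 65.7 in yCA, and 4.33 and 4.12 in the dMSN pair. Tet2 stood at 47.3 CPM in SP, 35.2 in HP, 40.3 in yMSN, 53.5 in yCA, and 12.2 and 13.0 in the dMSN pair. Tet3, best known from the zygote and also present in neurons, stood at 189.7 CPM in SP, 172 in HP, 163 in yMSN, 184 in yCA, and 17.5 and 19.2 in the dMSN pair. For each of the 3 genes both dMSN libraries lay below the other 4, and the order of those 4 changed from gene to gene.

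In dMSN, Tet1 averaged 4.22 ± 0.151 CPM, Tet2 12.6 ± 0.552 CPM and Tet3 18.4 ± 1.22 CPM (SD, n = 2 each). Tet1 fell 11.4-fold in dMSN relative to yMSN (log2 change -3.51, SE 0.205, adjusted p = 2.93e-08 in edgeR). Tet3 fell 8.84-fold (log2 change -3.14, SE 0.194, adjusted p = 4.48e-08) and Tet2 3.21-fold (log2 change -1.68, SE 0.204, adjusted p = 1.38e-05). Relative to SP, which shares the dMSN libraries with the comparison above, Tet1 fell 13.0-fold, Tet3 10.3-fold and Tet2 3.77-fold. The spread in these tests came from the dMSN pair, and yMSN and SP are assumed to vary like it. In dMSN against yMSN 35.4% of all genes tested were called lower and 32.1% higher, and in dMSN against SP 33.1% were lower and 39.1% higher. The summed Tet level was 34.0 and 36.3 CPM in dMSN, against 250.8 CPM in yMSN and 292 CPM in SP. Over the same comparisons the cycling progenitor and erythroid markers were also lower in dMSN, and the oligodendrocyte markers were higher. The cycling and erythroid sums were also lower in the young than in the precursor libraries, and the muscle markers were higher there. The 6 endothelium markers summed to 75.5 and 79.6 CPM in dMSN, against 276 in yMSN, 227 in yCA and 244 in SP and HP. Of these 6, 4 were called lower and 1 higher in dMSN against yMSN. The part of these markers in the result was not tested.

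**Figure D1:**
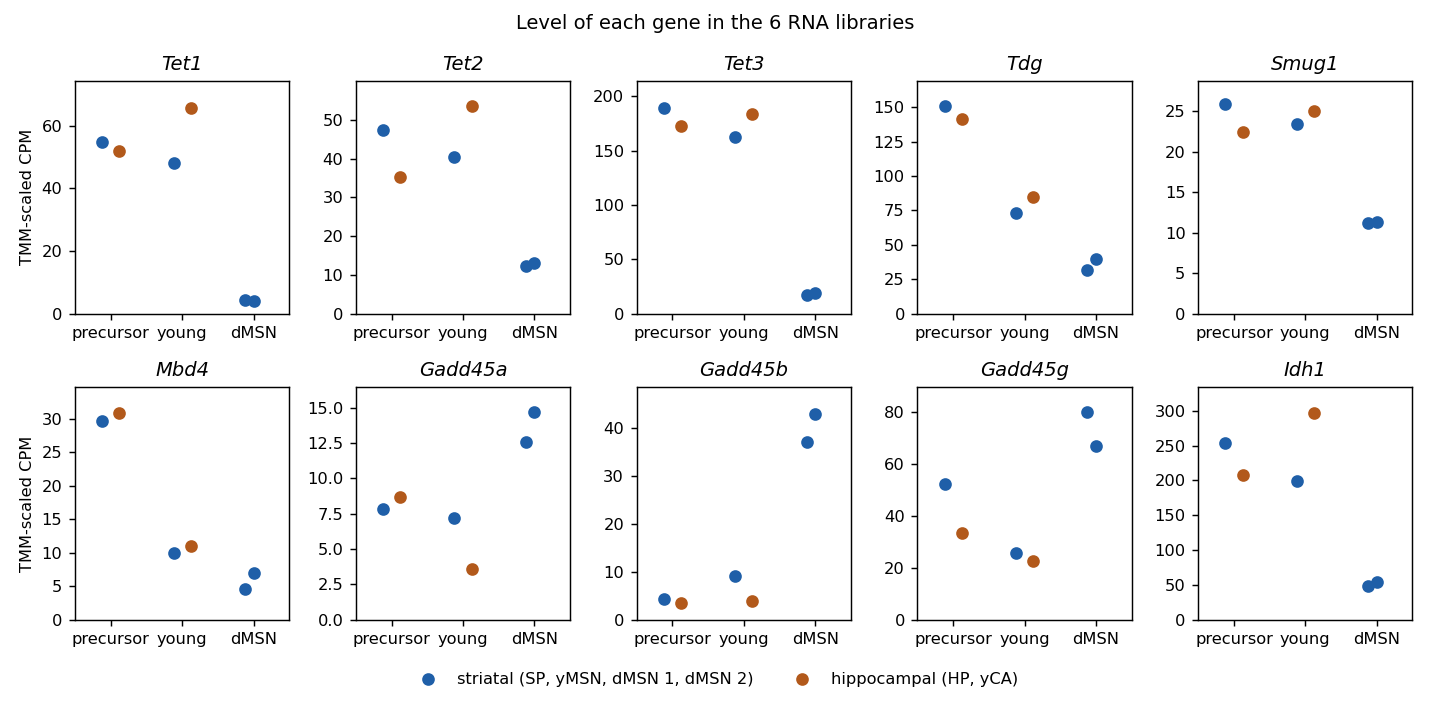
TMM-scaled CPM (y axis, linear, from 0) of each gene in each RNA library, by stage on the x axis, with striatal libraries in blue and hippocampal libraries in brown; each point is 1 library. The dMSN points lie below all others for 7 genes and above all others for the 3 Gadd45 genes.

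The make-up of the Tet reads differed in dMSN. Shares here are of the reads of the 3 genes, which depend on transcript length, so they are compared between libraries and not between genes. Tet2 made up 35.8% of Tet reads in dMSN 1 (95% Clopper-Pearson interval 34.3% to 37.3%) and 35.7% in dMSN 2 (34.2% to 37.1%). In the other libraries its share was 16.1% in yMSN, 17.6% in yCA, 16.2% in SP and 13.6% in HP, where each interval lay between 12.9% and 18.3%. Tet3 made up 51.5% and 53.0% in dMSN, against 64.8% in yMSN, 60.7% in yCA, 65.0% in SP and 66.4% in HP. Tet1 made up 12.7% and 11.3% in dMSN, against 18.8% to 21.7% in the other 4. The groups did not overlap for any of the 3 shares, which add up to a whole in each library and so are not separate observations. How often shares in other gene families do so was not computed. In level, 34.0% of all genes tested lay below the other 4 libraries in both dMSN libraries and 36.6% lay above.

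The Tet2 share averaged 35.7% in dMSN and 15.9% in the other 4 libraries, a difference of 19.9 percentage points. An exact two-sided permutation test of the 2 dMSN libraries against the other 4 gave p = 0.133, adjusted p = 0.2 over the 6 shares of the Tet and Gadd45 families. This p is the smallest that 15 arrangements allow. The reads of Tet2 per read of Tet1 numbered 2.81 and 3.15 in dMSN, against 0.839 in yMSN, 0.813 in yCA, 0.864 in SP and 0.678 in HP. Without 1 library at a time the Tet2 difference was 19.1 to 20.46 percentage points.

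**Figure D2:**
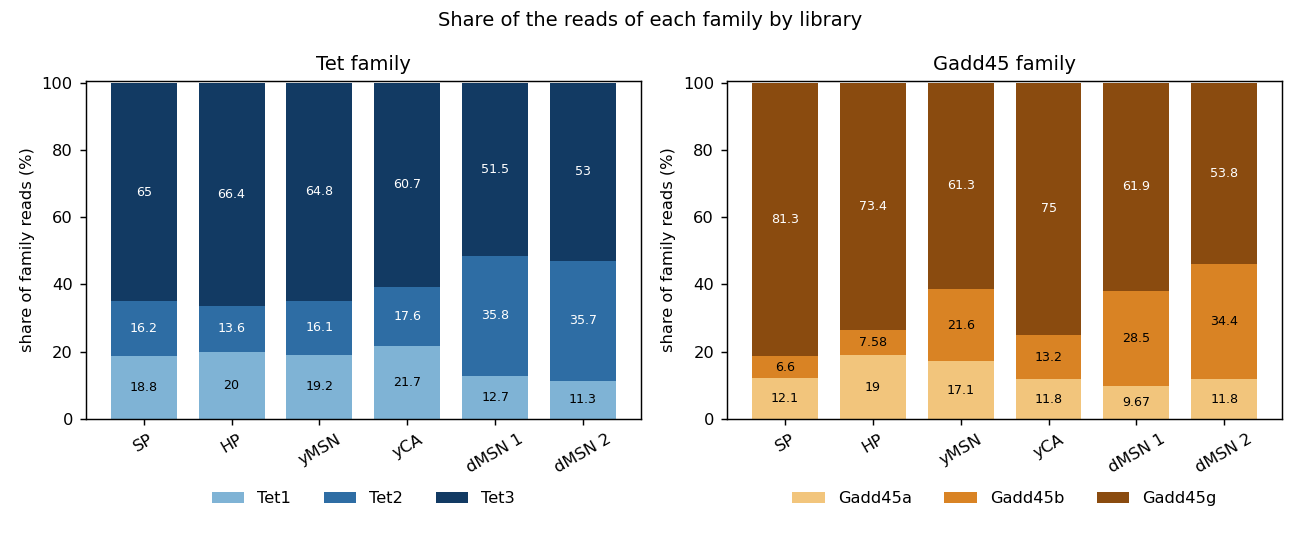
Share of the reads of each family (y axis, percent of the summed reads of the 3 paralogs) in each library (x axis), with each bar adding up to 100%. The Tet2 segment is 35.8% and 35.7% in dMSN, against 13.6% to 17.6% elsewhere, and the Gadd45b segment is 28.5% and 34.4% in dMSN, against 6.60% to 21.6% elsewhere.

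Of the 3 glycosylase genes, Tdg and Mbd4 were lower both in young than in precursor tissue and in dMSN than in yMSN. Smug1 was lower in dMSN alone. Tdg, whose product removes formylcytosine and carboxylcytosine, stood at 151 CPM in SP, 141 in HP, 73.1 in yMSN, 84.7 in yCA, and 32.0 and 39.9 in the dMSN pair. The 3 stages did not overlap. Of all genes tested, 34.0% lay below the other 4 libraries in both dMSN libraries, and the share with all 3 stages apart was not computed. Mbd4, a thymine and uracil glycosylase that binds methylated CpG, stood at 29.7 CPM in SP, 30.8 in HP, 9.92 in yMSN, 10.95 in yCA, and 4.53 and 6.93 in the dMSN pair. Its largest step thus lay between precursor and young tissue, and the dMSN libraries differed by more than counting error, with Poisson intervals of 4.16 to 4.93 CPM and 6.46 to 7.43 CPM. Smug1, a uracil glycosylase that also removes hydroxymethyluracil, stood at 25.9 CPM in SP, 22.4 in HP, 23.4 in yMSN, 25.01 in yCA, and 11.2 and 11.3 in the dMSN pair. Its 4 precursor and young values lay within a range of 22.4 to 25.9 CPM.

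Young tissue was tested against precursor tissue over both lineages, with lineage and stage as terms. Tdg fell 1.85-fold there (log2 change -0.89, SE 0.18, adjusted p = 0.0172 in edgeR) and Mbd4 2.90-fold (log2 change -1.54, SE 0.277, adjusted p = 0.0123). Smug1 did not pass, with a log2 change of 0.01 (SE 0.192, adjusted p = 0.983) whose sign turned with RLE scaling. All 3 fell in dMSN relative to yMSN, Tdg 2.03-fold (adjusted p = 0.000735), Smug1 2.08-fold (adjusted p = 0.00117) and Mbd4 1.73-fold (adjusted p = 0.0269). The Mbd4 call was lost in DESeq2 (adjusted p = 0.13), in limma voom (adjusted p = 0.0855) and with lineage and stage as terms (adjusted p = 0.0639). Its log2 change, -0.79 with both dMSN libraries, was -0.51 without dMSN 1 and -1.13 without dMSN 2, values with no test. The cycling progenitor and erythroid sums were lower over the same steps as Mbd4 and Tdg, at the levels given above. Of the 6 erythroid markers, 5 were called lower in young against precursor tissue. Alas2 was not (log2 change 0.07, adjusted p = 0.85 in edgeR). The part of these markers in the result was not tested.

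The Gadd45 genes encode small stress-induced proteins that bind cell cycle and kinase regulators and have been linked to repair-based demethylation. Gadd45b stood at 4.25 CPM in SP, 3.48 in HP, 9.09 in yMSN, 4.01 in yCA, and 36.9 and 42.8 in the dMSN pair. Gadd45g stood at 52.4 CPM in SP, 33.7 in HP, 25.8 in yMSN, 22.8 in yCA, and 80.2 and 67.0 in the dMSN pair. Gadd45a, a target of p53, stood at 7.80 CPM in SP, 8.70 in HP, 7.21 in yMSN, 3.57 in yCA, and 12.5 and 14.7 in the dMSN pair. For all 3 genes both dMSN libraries lay above the other 4, and the young libraries were the lowest for Gadd45a and Gadd45g but not for Gadd45b.

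All 3 rose in dMSN relative to yMSN. Gadd45b averaged 39.9 ± 4.19 CPM in dMSN (SD, n = 2) and rose 4.38-fold over yMSN (log2 change 2.13, SE 0.273, adjusted p = 2.16e-05 in edgeR). Gadd45g rose 2.85-fold to 73.6 ± 9.38 CPM (SD, n = 2; log2 change 1.51, SE 0.228, adjusted p = 8.41e-05). Gadd45a rose 1.89-fold to 13.6 ± 1.51 CPM (SD, n = 2; log2 change 0.92, SE 0.293, adjusted p = 0.0148), a call lost in DESeq2 (adjusted p = 0.079). Relative to SP, Gadd45b rose 9.37-fold (adjusted p = 7.84e-07) and Gadd45a 1.74-fold (adjusted p = 0.0259), while Gadd45g, at 52.4 CPM in SP, did not pass (log2 change 0.49, SE 0.216, adjusted p = 0.0575). The Gadd45a call against SP was lost with upper quartile scaling (adjusted p = 0.0551), in DESeq2 (adjusted p = 0.219) and with lineage and stage as terms (adjusted p = 0.336). With those terms Gadd45g passed against SP (0.60, adjusted p = 0.0493). A list of 8 genes that neuronal activity induces, Fos, Fosb, Junb, Egr1, Arc, Npas4, Nr4a1 and Ier2, had a higher summed level in dMSN than elsewhere, although Ier2 alone stood at 26.5 and 35.9 CPM in dMSN, against 53.6 in HP and 36.6 in SP. The summed level was 1050 CPM in dMSN 1 and 1630 CPM in dMSN 2, against 71.3 in yMSN, 48.6 in yCA, 53.9 in SP and 71.4 in HP, and its part in the result was not tested.

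Of the Gadd45 reads, Gadd45b made up 28.5% in dMSN 1 (95% Clopper-Pearson interval 27.8% to 29.2%) and 34.4% in dMSN 2 (33.6% to 35.2%), against 21.6% in yMSN, 13.2% in yCA, 6.60% in SP and 7.58% in HP. Its share averaged 31.4% in dMSN and 12.3% in the other 4 (exact permutation p = 0.133, the smallest the design allows, and adjusted p = 0.2 over 6 shares). For Gadd45g the groups overlapped, with 61.9% and 53.8% in dMSN and 61.3% in yMSN, against 73.4% to 81.3% in the remaining 3 libraries (exact permutation p = 0.267). The Gadd45a shares, at 9.67% and 11.8% in dMSN, likewise overlapped those of the other 4 at 11.8% to 19.0% (exact permutation p = 0.267).

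Idh1, the cytosolic enzyme that makes 2-oxoglutarate and NADPH from isocitrate, followed the Tet genes in direction. It stood at 253 CPM in SP, 208 in HP, 199 in yMSN, 297 in yCA, and 48.0 and 53.9 in the dMSN pair. In dMSN it fell 3.90-fold relative to yMSN (log2 change -1.96, SE 0.196, adjusted p = 2.57e-06 in edgeR) and 4.97-fold relative to SP (adjusted p = 3.97e-07).

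**Figure D3:**
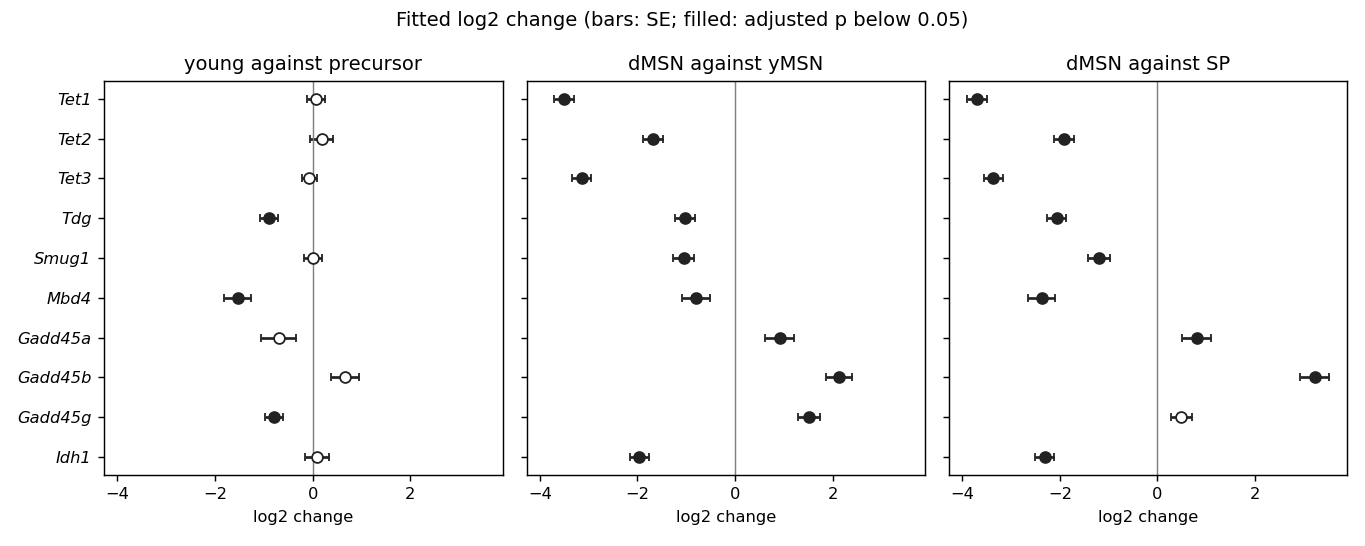
Fitted log2 change (x axis) of each of the 10 genes in young against precursor tissue, dMSN against yMSN and dMSN against SP, with SE bars; filled points had an edgeR adjusted p below 0.05. The 2 dMSN panels share the dMSN libraries, and there 7 genes lie left of 0 and the 3 Gadd45 genes right of it.

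Of the 10 genes, 7 lay below and 3 above all other libraries in both dMSN libraries, and none lay between. This order was common in these data, as 34.0% of all genes tested lay below the other 4 libraries in both dMSN libraries and 36.6% lay above. Relative to yMSN, 7 of the 10 were called lower and 3 higher in dMSN, against 35.4% and 32.1% of all genes tested. The median log2 change was -1.04 against -0.12 over all genes tested. Relative to SP, 7 were called lower and 2 higher, against 33.1% and 39.1% of all genes tested, with a median of -1.99 against 0.20. In young against precursor tissue 3 were called lower and 0 higher, with a median of -0.03 against 0.10, where 13.7% of all genes tested were called lower and 21.7% higher. The third gene that fell there was Gadd45g (log2 change -0.79, SE 0.191, adjusted p = 0.0282). That call was lost when SP, yMSN, dMSN 1 or dMSN 2 was left out, with adjusted p = 0.0912, 0.0911, 0.0744 and 0.0724. Gadd45a had a log2 change of -0.69 (SE 0.359, adjusted p = 0.189) and Gadd45b 0.66 (SE 0.286, adjusted p = 0.129). Gadd45a passed without SP (-1.29, adjusted p = 0.0104) or yMSN (-1.28, adjusted p = 0.00864), and Gadd45b without HP (1.09, adjusted p = 0.0125) or yCA (0.99, adjusted p = 0.0202). Without HP or yCA the Gadd45a change was -0.12 and -0.22, and without SP or yMSN the Gadd45b change was 0.20 and 0.21, none past the threshold. With any of these 4 libraries left out the contrast rests on 1 library per arm, with the spread of the dMSN pair.

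The Tet genes did not pass in young against precursor tissue, and the single-library ratios of the lineages had opposite signs. Pairs of single libraries have no replicate check, so each log2 ratio carries only its exact 95% counting interval. Tet2 had a ratio of -0.23 for yMSN over SP (-0.33 to -0.14) and 0.60 for yCA over HP (0.50 to 0.71). Tet1 had a ratio of -0.19 for yMSN over SP (-0.28 to -0.10) and 0.34 for yCA over HP (0.25 to 0.43). For Tet3 these were -0.22 (-0.27 to -0.18) and 0.10 (0.05 to 0.14), and for Idh1 -0.35 (-0.39 to -0.31) and 0.52 (0.47 to 0.56). Smug1 had ratios of -0.15 (-0.27 to -0.02) and 0.16 (0.02 to 0.30). The direction was thus opposite beyond counting error for 5 of the 10 genes, against 7.44% of all genes tested. These intervals narrow as reads increase, and the share over all genes includes genes with few reads, which can seldom pass. It is therefore not a like-for-like background for these 5, and it was not computed with RLE scaling. With RLE scaling, which lowers the ratios of both pairs, the hippocampal ratio was 0.003 for Tet3 and 0.069 for Smug1, each within counting error of 0, while Tet1 (0.249), Tet2 (0.511) and Idh1 (0.423) stayed above 0. A ratio past 2-fold was found in yMSN over SP for 1 gene higher (Gadd45b) and 3 lower (Tdg, Mbd4 and Gadd45g), against 26.6% and 9.66% of all genes tested. In yCA over HP it was 0 higher and 2 lower (Mbd4 and Gadd45a), against 23.9% and 14.2%. In yMSN over yCA it was 2 higher (Gadd45a and Gadd45b) and 0 lower, against 13.4% and 3.27%, and in SP over HP 0 in either direction, against 4.43% and 3.03%. With RLE scaling Gadd45b in yMSN over SP (0.919) and Gadd45a in yMSN over yCA (0.912) were under 2-fold.

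The difference between the lineages' changes was tested with a mean for each cell group, a test added after these values were seen. All 4 groups in it have 1 library, so its spread came from the dMSN pair alone, which is not part of the contrast. Of all genes tested, 5.20% passed, and 0 of the 10 did in edgeR, at adjusted p = 0.196 for Idh1, 0.238 for Tet2, 0.525 for Tet1, 0.761 for Tet3 and 0.816 for Smug1. Gadd45a had a ratio of -0.11 for yMSN over SP (-0.35 to 0.12) and -1.27 for yCA over HP (-1.58 to -0.99). Gadd45b had a ratio of 1.09 for yMSN over SP (0.83 to 1.37) and 0.20 for yCA over HP (-0.14 to 0.56). Tdg and Mbd4 were lower in the young library in both lineages, with ratios of -1.04 and -1.58 in the striatal pair and -0.74 and -1.49 in the hippocampal pair. The muscle markers given above were high in both young libraries and higher in yCA. The 6 stratified epithelium markers summed to 448 CPM in yMSN and 318 in yCA, against 3.12 in SP and 6.66 in HP, and the 6 cartilage and bone markers to 780 CPM in yMSN and 48.6 in yCA, against 489 in SP and 598 in HP. The part of these tissues in the ratios was not tested.

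**Figure D4:**
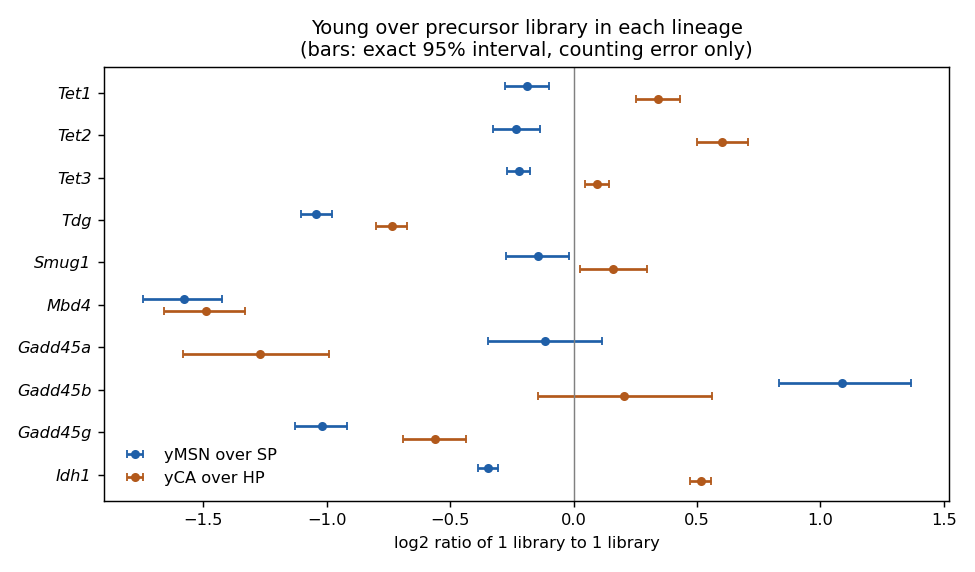
Log2 ratio (x axis) of the young to the precursor library in the striatal pair (yMSN over SP, blue) and the hippocampal pair (yCA over HP, brown) for each gene, with exact 95% intervals for counting error only. Tet1, Tet2, Tet3, Smug1 and Idh1 have points on opposite sides of 0, and Tdg, Mbd4 and Gadd45g have both points left of 0.

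Between the striatal and the hippocampal lineage, tested over both stages, 0 of the 10 genes and 0 of all genes tested passed in edgeR. Unadjusted values below 0.05 were had for 826 genes, of which Gadd45b was the only one of the 10 (log2 difference 0.74, SE 0.287, edgeR adjusted p = 1). DESeq2 called 60 genes and limma voom 0, with 0 of the 10 among them. Without HP or SP, Gadd45b passed (1.18 in both, adjusted p = 0.031 and 0.0298), and without yCA or yMSN its difference was 0.29 in both and did not pass. Each of these values rests on 1 library per arm. Gadd45b was higher in the striatal library of both pairs, with 4.25 against 3.48 CPM in SP against HP, where the counting interval of the ratio included 0, and 9.09 against 4.01 CPM in yMSN against yCA.

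Genes that act beside the 10 were taken from lists of the pathway. The repair list holds endonucleases, polymerase beta, ligases and their scaffolds, which act after glycosylases. It also holds further glycosylases, among them Ung, Neil3 and Mutyh. Of 16 such genes 9 fell and 0 rose in young against precursor tissue, against 13.7% and 21.7% of all genes tested. Their median log2 change was -0.99. Fen1, the flap endonuclease, fell by 2.16 on the log2 scale, the uracil glycosylase Ung fell by 1.79, the DNA ligase Lig1 fell by 1.76 and Mutyh, an adenine glycosylase, fell by 1.498. Relative to yMSN, 7 were lower and 2 higher in dMSN, with a median of -0.23, against 35.4% and 32.1% of all genes tested. Neil3, a glycosylase of proliferating cells, fell by 4.64 to 0.673 and 0.544 CPM in dMSN, against 15.3 CPM in yMSN, and Lig3, Lig1 and Ung fell by 2.25, 2.18 and 1.40. Among those higher was Polb, the polymerase that fills the gap, which rose by 1.10 to 77.3 and 78.5 CPM in dMSN, against 36.5 CPM in yMSN. In dMSN against SP 10 fell and 2 rose, against 33.1% and 39.1% of all genes tested. The 2 that rose were Polb, by 1.43, and Neil1, by 1.13. Polb and Neil1 were singled out after their values were seen. The 6 cycling progenitor markers all fell in the same comparisons, with a median log2 change of -1.97 in young against precursor tissue and -6.01 in dMSN against yMSN, and their part in the change of the repair genes was not tested.

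Of 18 symbols listed for partners of Tet enzymes and readers of oxidised cytosine, 16 were found and 14 were tested. Dppa3 was at a count of 0 in every library, Wt1 was removed by the filter, Hmces was not found, and Oga and its older name Mgea5, under which it was found, stand for the same gene. In young against precursor tissue 3 fell and 1 rose, against 13.7% and 21.7% of all genes tested. Hells, a chromatin remodeller of DNA methylation, fell by 2.61, Wdr76 and Uhrf2, both reported to bind hydroxymethylcytosine, fell by 2.00 and 0.77, and Slc23a2, the transporter of vitamin C, a cofactor of Tet enzymes, rose by 1.12. In dMSN, 10 were lower and 3 higher than in yMSN, against 35.4% and 32.1% of all genes tested. Hells fell by 4.77 and Wdr76 by 2.21, while Gadd45gip1, known as a protein of the mitochondrial ribosome, rose by 2.71 and Cxxc5, a zinc finger protein that binds unmethylated CpG, rose by 1.57. The third that rose was Thyn1, by 1.081, which was singled out after its value was seen. Relative to SP the counts were again 10 lower and 3 higher, against 33.1% and 39.1% of all genes tested. Ogt, the sugar transferase that associates with Tet proteins, was among those lower than in yMSN, at a log2 change of -1.10, and was singled out likewise.

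Genes of 2-oxoglutarate and 2-hydroxyglutarate metabolism mostly had the opposite direction to Idh1. Of 12 such genes 8 were higher and 1 lower in dMSN than in yMSN, against 32.1% and 35.4% of all genes tested. Their median log2 change was 1.37. Idh3a and Idh3b, subunits of the NAD-dependent mitochondrial isocitrate dehydrogenase, rose by 2.21 and 2.19, and Sdhb and Fh1, enzymes that follow in the citric acid cycle, rose by 2.24 and 1.69. Idh3a stood at 354 and 397 CPM in dMSN, against 81.0 CPM in yMSN. The gene that fell was Idh2, the mitochondrial NADP-dependent isocitrate dehydrogenase and closest relative of Idh1, by 1.06 to 79.9 and 69.1 CPM in dMSN, against 155 CPM in yMSN. Idh2 was singled out after its value was seen. In dMSN against SP the counts were again 8 and 1, against 39.1% and 33.1% of all genes tested. In young against precursor tissue only Fh1 passed, with a fall of 0.68, where 13.7% of all genes tested fell. Of 5 cytosine deaminases, 4 fell in dMSN against yMSN, as did 35.4% of all genes tested. In young against precursor tissue 3 rose, as did 21.7% of all genes tested. Relative to SP only Apobec3 passed, and it fell 2.02-fold, where 33.1% of all genes tested fell. Apobec2, known from skeletal muscle, stood at 1.04 and 0.561 CPM in dMSN, against 20.05 CPM in yMSN, and at 47.4 CPM in yCA, where the muscle markers were also high; the part of those markers was not tested. Apobec4 was at or below 0.53 CPM in every library.

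**Figure D5:**
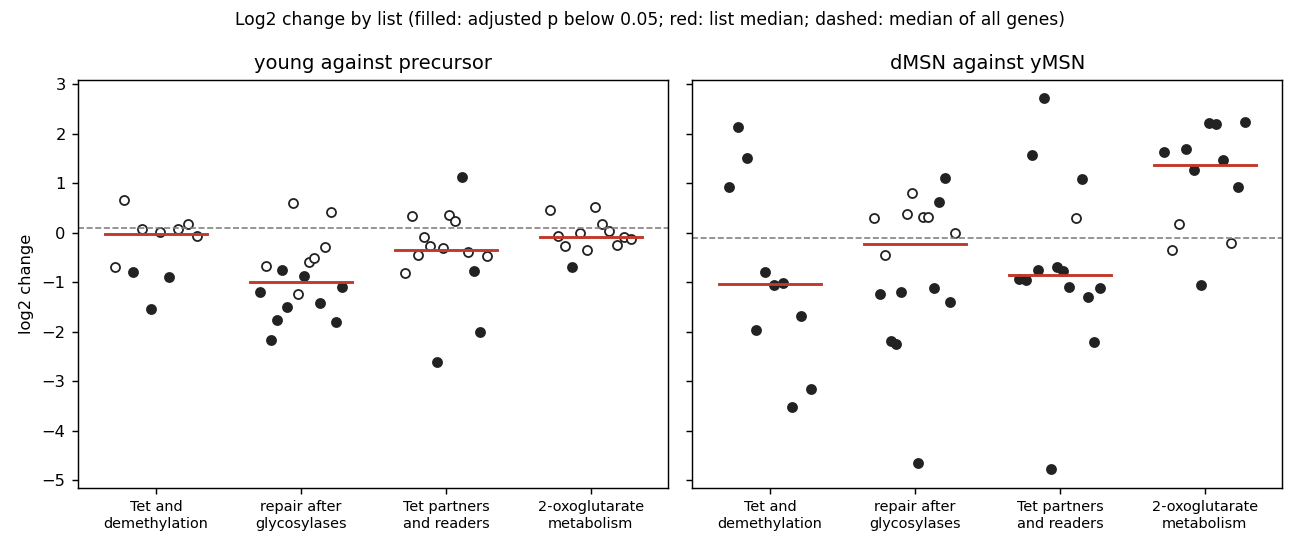
Log2 change (y axis) of each tested gene of the 10 described here and of 3 pathway lists in young against precursor tissue (left) and dMSN against yMSN (right); filled points had an edgeR adjusted p below 0.05, red lines are list medians and the dashed line is the median of all genes tested. On the right the 2-oxoglutarate list has a median of 1.37 and the 10 genes a median of -1.04.

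The genes most like each Tet gene were found by the root mean square difference of centred log2 CPM over the 6 libraries, among 11752 genes with a mean of at least 5 CPM. For Tet3 they were Zfp229, Tnfrsf22 and Thoc2, at 0.0819, 0.115 and 0.123. For Tet1 they were Alkbh8, Dchs1 and Trp53inp1, at 0.137, 0.151 and 0.169. For Tet2 they were Zfp329, Aff4 and Zfp60, at 0.0943, 0.108 and 0.110. The 6 points include the dMSN pair and so cover 5 cell groups. Zfp229, a zinc finger gene, stood at 1.80 and 2.05 CPM in dMSN, against 15.6 to 21.1 CPM in the other 4.

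Some of the 10 genes overlap another gene in the RefSeq annotation. Tdg overlaps Glt8d2, Mbd4 overlaps Ift122, Gadd45a overlaps E230016M11Rik, Tet3 overlaps B230319C09Rik and Mir6374, and Tet1 overlaps Gm51805. No strand setting is stated for the counting, so reads of a gene and an antisense partner cannot be told apart, and RefSeq also lists Tdg-ps and Tdg-ps2, named as pseudogenes of Tdg, so the Tdg counts are uncertain to the extent that reads align to more than 1 of them.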

How the data were processed

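Each deposited table holds unnormalised read counts by gene symbol for 1 RNA library, together with 5 HTSeq summary lines, which stayed out of library sizes (5.34% to 9.80% of reads in no gene, 1.38% to 2.01% ambiguous, 17.3% to 27.4% aligned to several places). Tools named in the submitters' processing notes, with no role given, are TopHat2 2.0.2, Bowtie 1.0.0, TopHat, HTSeq, edgeR, Bismark and methylKit, and the builds are NCBIM37 and mm9. Promoters come from another build, GRCm38.p6.

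TMM scaling and filterByExpr were applied in edgeR 4.0.16 (R 4.3.3), and 19192 genes were fitted by quasi-likelihood with p adjusted by Benjamini-Hochberg (threshold 0.05). SEs are the absolute log2 change over the root of F. Stage and lineage contrasts used both as terms over all 6 libraries (2 residual degrees of freedom), and dMSN contrasts used 1 mean per cell group (1 residual degree of freedom). Ratios of single libraries used a prior count of 2. The fits were also run on simulated data with known changes, whose spread was taken from the dMSN pair. The outcome is not given here, and such runs cannot speak for the spread of the groups with 1 library. DESeq2 1.42.0 and limma 3.58.1 were alternatives, with other scalings and filters and each library left out.

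The members and lists were chosen with earlier results of these data known. Up to 4 genes per pathway list and comparison were named by size of change, first among those past the threshold. Intervals cover counting error only.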

Additional observations from a re-analysis of the deposited data

Results flagged for a closer look

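In 5 genes the young library was below its precursor library in the striatal pair and above it in the hippocampal pair, each beyond counting error. The fitted log2 difference, striatal change minus hippocampal change, was -0.862 for Idh1, -0.835 for Tet2, -0.53 for Tet1, -0.318 for Tet3 and -0.307 for Smug1. In edgeR none of the 5 differences passed, with adjusted p from 0.196 to 0.816, and each lineage has 1 library per stage. With RLE scaling the hippocampal ratio of Tet3 was 0.003 and that of Smug1 0.069.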

How the results depend on the processing

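Against yMSN, Tet1, Tet2, Tet3, Tdg, Smug1, Gadd45b, Gadd45g and Idh1 kept their direction and call under every alternative that gave a test, with Tet1 at -3.66 to -3.43. Leaving out a dMSN library there left no residual degrees of freedom, so only log2 changes were had, and without yMSN or SP the comparison with that library could not be fitted. Against SP, 1 gene rose rather than 2 with upper quartile scaling and with DESeq2. In young against precursor tissue a mean per cell group called 5 of the 10, Gadd45b (higher, 1 gene) and Gadd45a (lower) in addition, the count that rose was 0 to 1 with a library left out, and the count over all genes was 3590 to 7355 (3590 without dMSN 1 and 3647 without dMSN 2, against 6798). There Tet1 had -0.054 with RLE scaling and DESeq2, Idh1 -0.047 with both, and Smug1 -0.123 with both, -0.033 with no filter, -0.032 with a filter at 1 CPM in 2 libraries and -0.001 with limma voom. With a library left out, Tet1 ranged from -0.295 to 0.343, Tet2 from -0.338 to 0.605, Tet3 from -0.329 to 0.097, Smug1 from -0.252 to 0.163 and Idh1 from -0.453 to 0.517. Between the lineages, Tet2 had -0.044 with RLE scaling and DESeq2, -0.045 with no filter, -0.031 with the 1 CPM filter and -0.014 with limma voom. With a library left out Tet1 ranged from -0.454 to 0.079, Tet2 from -0.41 to 0.428, Tet3 from -0.181 to 0.139, Tdg from -0.213 to 0.095, Smug1 from -0.1 to 0.21, Gadd45a from -0.16 to 1.01 and Idh1 from -0.578 to 0.287. The 0 genes called there became 60 in DESeq2, 356 with a mean per cell group and 0 to 1515 with a library left out (116 without yCA, 130 without yMSN, 1495 without HP and 1515 without SP), where 0 to 1 of the 10 passed. The test of the difference between lineages called 998 genes in edgeR and 3 in limma voom. The Tet2 share difference was 19.1 to 20.46 points and the Tet3 one -13.18 to -11.24 with a library left out. The cause of these changes was not tested.

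The all-gene median in young against precursor was -0.02 with RLE scaling, against 0.10 with TMM, and in dMSN against yMSN it was -0.27 with upper quartile scaling, against -0.12. In dMSN against SP it was 0.08 with RLE scaling and 0.07 with upper quartile scaling, against 0.20. DESeq2 called 3970 higher and 3790 lower in young against precursor, against 4169 and 2629 in edgeR. Shares per coding length were not run, since no protein lengths were at hand. No paired analysis was possible because the groups compared share only replicate number 1. HP, SP, yCA and yMSN have 1 library each, which limits every contrast between them.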
